A study of Mus musculus with 12 samples.

Results

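The newborn bladders of unmodified mice are described here, as 2 sets of wild-type arrays set against each other. The rule took the 6 wild-type arrays of a series of 12 and split them by their GUDMAP database record numbers. The first set holds the arrays labelled 43B, 45B and 61B, and the second set holds 24B, 25B and 26B. The record numbers of the 3 SMAA/EYFP arrays lie between the sets, and those of the 3 SMGA/EGFP arrays come before the first set. What a run of record numbers stands for (a litter, a dissection day, an amplification or a hybridisation) is not given in the sources used here, so these cannot be told apart.

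The series asked how a fluorescent reporter under the promoter of a smooth muscle actin gene affects the transcriptome of the bladder. Both wild-type sets carry the same labels: strain FVB/N, wild type, male, postnatal day 1, Theiler stage 27, from FVB/N females mated to control males. Each sample was 1 whole bladder and was not pooled, per the labels, and its RNA was amplified in 1 round and labelled with biotin. The labels do not say which animals were littermates, and the p-values measure only the spread between these samples. The transgenic groups, used here only beside the wild-type values, carry EGFP under the Actg2 promoter (SMGA/EGFP) or EYFP under the Acta2 promoter (SMAA/EYFP) in the same strain at the same age.

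A newborn bladder is a muscular sac with several tissues. Bundles of smooth muscle (the detrusor) surround a fibroblast-rich layer and an inner urothelium, whose umbrella cells carry uroplakin plaques. Parasympathetic and sympathetic fibres from the pelvic ganglia, which lie on the bladder neck, drive and restrain contraction, and in the mouse the ganglion cells sit largely outside the wall. The dome is covered by peritoneal mesothelium.

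Levels are given as log2(intensity + 16) after quantile normalization, and a difference is the mean of the second set minus that of the first on the same scale, so 1 unit is a doubling. Adding 16 understates the difference of dim genes. Smooth muscle and urothelium were present on every array: Acta2 (alpha smooth muscle actin) lay between 15.88 and 16.02, Actg2 (gamma smooth muscle actin) between 15.80 and 15.87, Upk3a (a uroplakin) between 14.75 and 15.23. The label male did not hold for 1 array. On 24B, Xist (the RNA that coats the inactive X chromosome) had an intensity of 29604, against 128 to 250 on the other 5 wild-type arrays. The Y-linked genes Eif2s3y, Kdm5d and Uty had intensities of 26.7, 28.0 and 48.6 on 24B, and at least 3786, 938 and 808 on the other 5. The profile of 24B thus went against its label. The medians of the neuron, mesothelium and sterol lists and the difference of Insig1 are also given without it. Genes on the sex chromosomes were left out of the main test and of the list scores. An alternative that took all probe sets but controls held them.

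Array 61B stood apart from the other arrays of its set. Over the tested probe sets, the correlation of 61B with 43B and 45B was 0.969 and 0.967, and its correlation with 24B, 25B and 26B was 0.982, 0.984 and 0.984. Arrays 43B and 45B correlated with each other at 0.982. The leading principal component held 49.4% of the variance, and on it 43B and 45B lay at 35.4 and 39.9, 61B at -13.5, and the second set between -25.9 and -16.4. In this measure 61B lay beside the second set, and 43B and 45B lay apart from the other 4 arrays. Probe sets are not independent replicates in such correlations.

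No autosomal gene passed the test between the sets. With limma and Benjamini-Hochberg adjustment, 0 of 19387 probe sets (0%) had an adjusted p under 0.05, and the smallest adjusted p was 0.365. Without adjustment, 1716 probe sets had p under 0.05, where 969.4 would be expected by chance alone. With 1 probe set for each of 11322 genes, 418 genes (3.69%) were lower in the second set at unadjusted p under 0.05 and 565 (4.99%) were higher. All 3 arrays of the second set lay below all 3 of the first for 490 genes (4.33%), and above them for 899 genes (7.94%). The median difference over all genes was 0.03, with 6387 genes higher and 4935 lower.

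The largest differences went 1 way. Of 152 genes that differed by more than 1 unit, 134 were lower in the second set and 18 were higher. The count of calls rested on 61B. When that array was left out, 680 of 19393 probe sets (3.51%), of 564 genes, passed the adjusted threshold in limma, 408 (2.10%) lower and 272 (1.40%) higher in the second set. Leaving out any of the other 5 arrays gave 0 calls. The fit without 61B is thus named below because of its outcome. It drops the first-set array that lay beside the second set in these same values, and it leaves the first set smaller than the second. Its calls describe the other 5 arrays and are not separate support for a difference between the sets. With array weights, in which 61B had the lowest weight of the 6 (0.517), 32 probe sets passed, and all 32 were among the 680. The genes below are therefore given array by array, and "higher" and "lower" describe the means of the sets and not a passed test, unless a call without 61B is named.

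**Figure D1:**
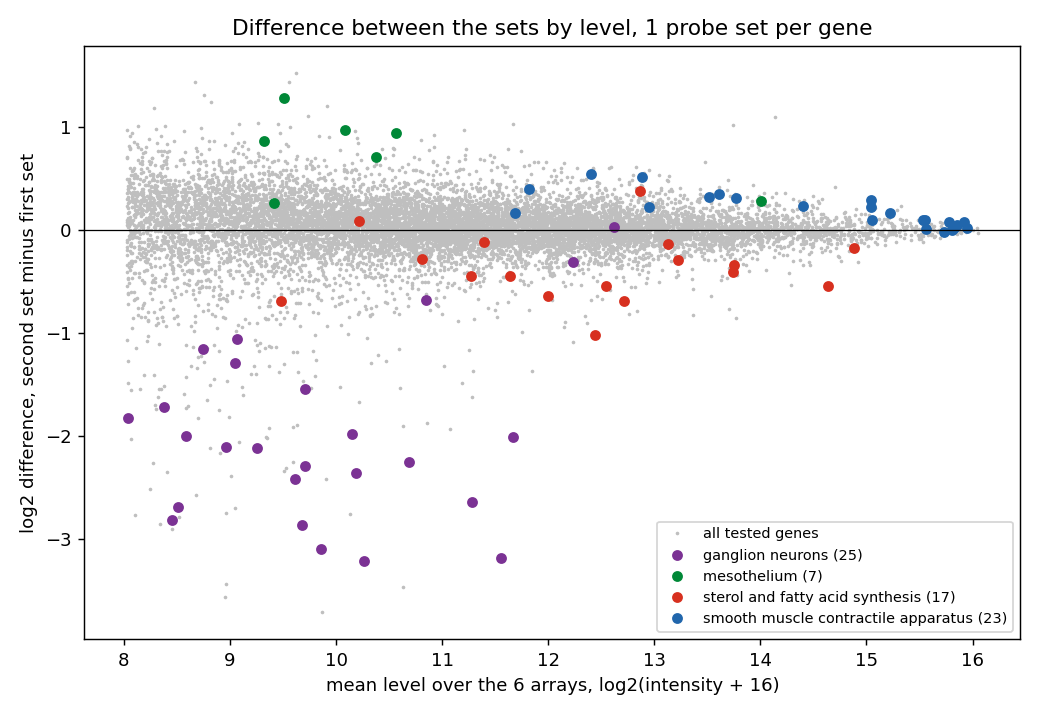
Difference between the sets (second minus first, log2 units) against the mean level over the 6 arrays for 1 probe set per gene, with 4 gene lists in colour. The ganglion neuron genes (purple) lie mostly between -1 and -3 units, the mesothelium genes (green) all lie above 0, and the smooth muscle genes (blue) lie at the bright end close to 0.

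Genes of ganglion neurons differed most. Of 35 listed neuronal genes, 34 had a named probe set and 25 passed the filter on low values. Of all 34, 31 were lower in the second set, with a median difference of -2.01. Of the 25 that passed, 24 were lower, 22 of them at unadjusted p under 0.05 (3.69% of all genes), and for 20 the second set lay below the first without overlap (4.33% of all genes). Their median was -2.10. The means of 6 of the 25 in the second set lay below the filter level of 8.03 (Tubb3, Elavl4, Ina, Chga, Scg2 and Sst), so these passed the filter only through the first set and the filter favoured their direction. The list score, the mean deviation of its 25 genes from their means over the 6 arrays, was 1.92 on 43B, 1.23 on 45B, -0.18 on 61B, -0.74 on 24B, -1.38 on 25B and -0.85 on 26B. The summed intensity of the list ran from 30751 to 124447 in the first set and from 18448 to 25702 in the second. Array 43B was the highest of the 6 for 24 of the 25 genes, and 25B was the lowest for 18. In RNA from a whole organ, fewer neurons and less RNA per neuron cannot be told apart, here and for every cell type below.

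The cytoskeleton of axons showed the pattern at high levels. Nefl, the light chain of neurofilament, was at 14.16, 13.64 and 11.63 in 43B, 45B and 61B, and at 10.46, 8.86 and 10.56 in 24B, 25B and 26B. The sets did not overlap, yet 61B lay closer to 24B and 26B than to its own set. The difference was -3.19 (SE 0.64, a 9.11-fold difference), with an adjusted p of 0.365 in limma.

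Prph, the intermediate filament peripherin of peripheral neurons, read 12.08, 11.77 and 9.47 in the first set and 8.76, 7.88 and 8.09 in the second. Its difference was -2.86 (SE 0.59). Tubb3, the neuronal beta tubulin, read 10.83, 10.10 and 8.67 against 7.74, 6.36 and 7.04. For both genes every second-set array lay below every first-set array. Nefm (-2.01), Ina (-2.69), Stmn2 (-2.64), Stmn3 (-2.36) and the growth cone protein gene Gap43 (-1.98) had the same order of sets, with no overlap.

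Genes of the synapse and of secretory granules followed. Snap25, a part of the machinery that fuses synaptic vesicles with the membrane, read 12.74, 11.66 and 9.81 in the first set and 9.03, 7.22 and 8.68 in the second, a difference of -3.10 (SE 0.69). Syt1, the calcium sensor of vesicle release, differed by -1.55. The granule proteins Chga, Chgb and Scg2 differed by -1.82, -2.42 and -2.003, and in all 3 the sets did not overlap.

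Peptides found in both transmitter classes of the pelvic ganglion were lower in the second set. The enzymes Chat and Th, which did not pass the filter, are given below. Vip, a peptide of parasympathetic neurons that relaxes smooth muscle, read 13.10, 12.39 and 10.12 in the first set and 9.10, 7.61 and 9.25 in the second, a difference of -3.22 (SE 0.70, 9.30-fold). Npy, a peptide found in sympathetic neurons among others, read 12.11, 11.16 and 9.28 against 8.53, 8.50 and 8.65, a difference of -2.29 (SE 0.57). Array 43B was the highest for both peptides, and the second set was the lower one throughout.

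Nos1, which makes nitric oxide in nitrergic nerves, read 10.69, 10.54 and 9.11 against 8.29, 6.88 and 7.69. Its difference was -2.49 (SE 0.46), and Cartpt, a neuropeptide precursor, differed by -1.91 (SE 0.38). Dbh, the enzyme that makes noradrenaline, read 10.54, 9.19 and 9.05 against 8.31, 8.57 and 8.73, a smaller difference of -1.06 (SE 0.36). Sst (somatostatin) differed by -1.72. Nos1, Cartpt, Dbh and Sst showed no overlap. The second-set mean of Nos1 lay below the filter level of 8.03, so Nos1 passed the filter only through the first set.

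The transcription factors and receptors that specify autonomic neurons were lower as well. Isl1 read 12.85, 12.42 and 10.18 in the first set and 9.91, 9.32 and 9.45 in the second, a difference of -2.26 (SE 0.57). Ret, the receptor through which GDNF family ligands support these neurons, differed by -2.11 (SE 0.54), and Phox2a by -1.29 (SE 0.44), with overlap of the sets for Phox2a. A further 3 members stood apart from this. Hand2, also a gene of the bladder mesenchyme, lay between 12.30 and 12.86 on all 6 arrays (difference 0.03), and Uchl1 (-0.31) and Ddc (-0.68) had overlapping sets and unadjusted p over 0.05.

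Of the 25 genes, 21 passed the adjusted threshold in limma without 61B, and the median of the list was then -2.64. Over all probe sets, 2.10% were lower and passed in that fit. Array 61B had the lowest score of the first set for this list, so the count without it is not separate support. With each array left out in turn, the median of the list ran from -2.64 to -1.60. Without 24B the median was -2.13. Of the 9 neuronal genes that did not pass the filter, 7 were lower in the second set. Slc18a2, the vesicular monoamine transporter, read 10.21, 8.92 and 7.01 against 6.07, 6.68 and 5.61. Th, the first enzyme of catecholamine synthesis, read 9.62, 8.68 and 7.49 against 7.30, 7.28 and 7.46. Chat, the enzyme of acetylcholine synthesis, was near 8 on all arrays (7.65 to 8.34) and showed no such order.

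**Figure D2:**
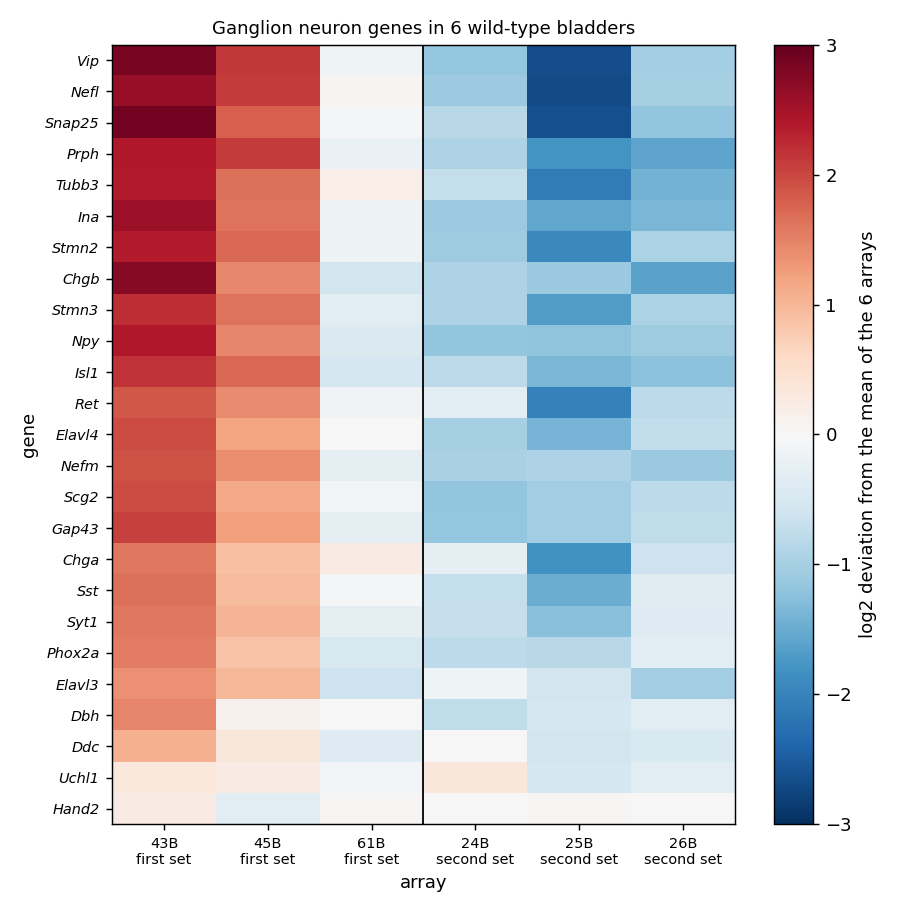
Each row is 1 of the 25 tested ganglion neuron genes and each column is 1 wild-type array; the colour is the log2 deviation from the gene's mean over the 6 arrays (red above, blue below). Arrays 43B and 45B are red in nearly all rows, 61B is near 0, and the 3 arrays of the second set are blue or near white except for Uchl1 on 24B.

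Glia had a smaller median difference than neurons. Of 14 listed genes of Schwann and satellite glia, 11 had a probe set and 7 passed the filter, with a median difference of -0.26, or -0.48 without 61B. Of these 7, 6 were lower and 1 (Cnp) was higher. At unadjusted p under 0.05, 1 was lower, beside 3.69% of all genes, and 2 were lower without overlap, beside 4.33%. Of all 11, 10 were lower, with a median of -0.35. Fabp7, a fatty acid binding protein of satellite and immature glia, had the largest difference. It read 11.96, 11.19 and 9.997 in the first set and 9.50, 9.43 and 9.22 in the second, a difference of -1.67 (SE 0.40) without overlap. Sox10, the transcription factor of all glia of the neural crest, lay between 8.01 and 8.65 (difference -0.22). The myelin genes Mbp (-0.01) and Cnp (0.27) had overlapping sets. Whether the glial and the neuronal median differ was not tested.

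Genes outside the list that are known from neurons were among those of smallest p or largest spread. Rtn1 (reticulon 1, of neuroendocrine cells) read 13.49, 12.93 and 10.69 against 9.50, 8.22 and 8.97, a difference of -3.47 (SE 0.63, 11.1-fold). Nsg2 and Snap91, both proteins of neuronal endosomes and clathrin coats, differed by -2.42 (SE 0.41) and -1.90 (SE 0.32). Elavl2, an RNA-binding protein of neurons, differed by -2.76 (SE 0.58). The adjusted p of these 4 genes in limma was 0.365 with all 6 arrays. Without 61B it lay between 6.972e-04 and 3.291e-03 for Rtn1, Nsg2, Snap91 and Elavl2. Over all probe sets, 2.10% were lower and passed in that fit. The genes were chosen for p or spread in these same arrays, so these values are not separate support. Vat1l (-2.01, SE 0.39) and Sbk1 (-1.17, SE 0.23) were also among the 20 genes of smallest p and had 43B highest, 45B next and 61B lowest of its set.

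The 20 genes with the largest standard deviation over the 6 arrays were chosen for their spread, so it is described and not tested. They held 7 neuronal genes (Rtn1, Vip, Nefl, Snap25, Prph, Elavl2 and Tubb3) and 3 genes of skeletal muscle. Myl1, a myosin light chain of fast muscle, had the largest spread. It read 12.64 on 43B, 14.21 on 45B and 8.32 on 61B, and 8.16, 8.05 and 7.81 in the second set. Mylpf, the regulatory light chain of fast fibres, read 10.15, 13.38 and 7.66 against 7.70, 7.43 and 7.96. Myh3, the embryonic myosin heavy chain, read 9.68, 13.01 and 7.05 against 6.91, 7.50 and 6.97. Array 45B was the highest in all 3 and 43B the next, with the other 4 arrays close together.

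The skeletal muscle list as a whole showed this only in part. Of its 28 genes, 14 passed the filter, with a median difference of 0.01, 7 higher and 7 lower. Of all 28, 16 were lower and 12 higher, with a median of -0.40. Of the 14, 3 were lower and 1 higher at unadjusted p under 0.05, beside 3.69% and 4.99% of all genes. Array 45B was the highest of the 6 for 7 of the 14 and 25B for 7, and 43B was the lowest for 9. The list score was 1.28 on 45B, 0.04 on 43B and between -0.45 and -0.22 on the other 4 arrays. Among the 14 genes that did not pass the filter, Ttn (titin) read 12.23 on 45B, 8.23 on 43B and at most 6.51 elsewhere. Myog, the transcription factor of differentiating myoblasts, read 10.54 on 45B, 8.40 on 43B and at most 6.67 elsewhere. Acta1 (15.73 to 15.82), Tnnc2 (13.08 to 13.81), Tnnt3 (13.24 to 13.90) and Ckm (12.27 to 12.95) were bright on every array and were not highest on 45B. The list summed to 96907 on 43B, 136900 on 45B, 101937 on 61B and 96878 to 109596 in the second set.

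Of the other genes chosen for their spread, several were high on 43B and 45B. Clca1, a secreted protein of mucous epithelia, read 11.43, 12.45 and 8.33 in the first set and 7.84, 6.85 and 6.83 in the second, a difference of -3.56 (SE 0.87). Mme, the membrane metalloprotease neprilysin, read 11.44, 11.91 and 8.70 against 7.26, 7.19 and 7.30. Aldh1a3, an enzyme that makes retinoic acid, read 11.54, 11.04 and 7.77 against 7.78, 8.47 and 7.92. For Clca1, Mme and Aldh1a3, 43B and 45B lay far above the other 4 arrays. The second-set means of Clca1, Mme, Tspan1, Sgpp2, Gm2102, Rab6b, Dusp5, Myh3, Mylpf and Myl1 lay below the filter level of 8.03, where a signal may be background, so no fold is given for them.

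Tspan1, a tetraspanin of epithelia, read 10.01, 10.89 and 7.57 against 7.89, 6.90 and 5.38. Alb, the albumin of liver, read 13.33, 11.47 and 7.23 against 7.63, 9.43 and 7.95, so that 25B was also raised above the lowest arrays. Sgpp2, Gm2102 and Rab6b read highest on 43B, then on 45B and then on 61B, with differences of -2.90, -2.86 and -2.75. Of cartilage genes, Col9a1 read 9.69, 9.36 and 7.28 against 7.15, 6.84 and 7.88. Its second-set mean also lay below the filter level. Of 10 cartilage and bone genes with a probe set, 9 did not pass the filter. No listed gene of prostate and Wolffian duct passed the filter, of 7 with a probe set. The 1 tested gene of gut epithelium differed by 0.29.

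Olfr78 and Dusp5 varied along other lines. Olfr78, an olfactory receptor gene also expressed outside the nose, read 12.27, 8.74 and 10.87 in the first set and 11.67, 11.53 and 7.72 in the second, with 45B and 26B lowest. The sign of its set difference of -0.32 depended on single arrays, being 0.50 without 43B and 0.97 without 26B. Dusp5, a phosphatase induced by growth factor signals, read 9.55, 10.95 and 9.10 against 6.19, 7.18 and 9.87. Whether these genes and the neuronal genes share a source was not tested.

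**Figure D3:**
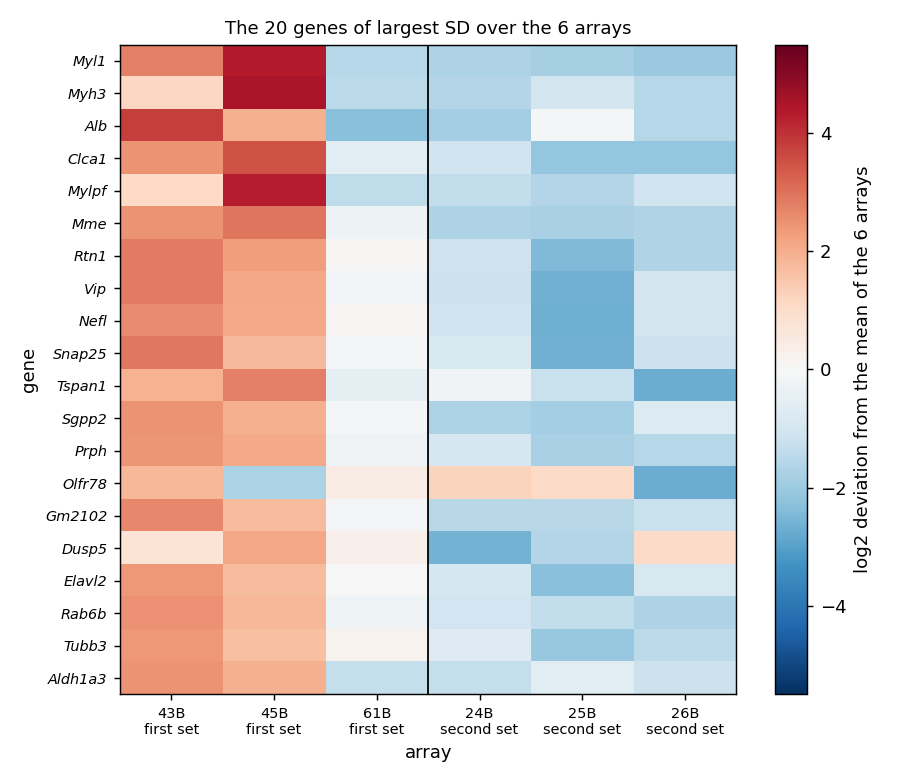
The 20 genes with the largest standard deviation over the 6 wild-type arrays, as log2 deviation from each gene's mean (red above, blue below; columns are arrays). Arrays 43B and 45B are red in all rows except Olfr78, which is blue on 45B. Array 61B is near white for the neuronal genes, and blue for Myl1, Mylpf, Myh3, Alb and Aldh1a3.

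Mesothelium was the clearest cell type in the other direction. Of 8 listed genes, 7 passed the filter and all 7 were higher in the second set. Of these, 6 were higher at unadjusted p under 0.05 with no overlap of the sets, beside 4.99% and 7.94% of all genes, and the median difference was 0.87. The list score was -0.44 on 43B, -0.45 on 45B, -0.26 on 61B, 0.42 on 24B, 0.53 on 25B and 0.19 on 26B. Here 61B lay with its own set. The summed intensity ran from 18167 to 20951 in the first set and from 24774 to 28358 in the second.

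Bnc1, a zinc finger factor of mesothelial and basal cells, had the smallest p of all genes. It read 8.86, 8.70 and 9.04 in the first set and 10.01, 10.29 and 10.15 in the second. The difference was 1.28 (SE 0.16, 2.43-fold), with an adjusted p of 0.365 in limma, and between 1.20 and 1.36 when any array was left out. The gap between the sets was wider than the range within either.

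Muc16, the mucin known as CA125, read 8.63, 8.83 and 9.20 in the first set and 9.77, 9.90 and 9.60 in the second, a difference of 0.87 (SE 0.19). Lrrn4, a mesothelial membrane protein, read 9.60, 9.20 and 9.99 against 10.75, 10.82 and 10.15 (0.97, SE 0.24). Gpm6a, a membrane glycoprotein, read 10.17, 9.66 and 10.46 against 11.28, 11.30 and 10.53 (0.94, SE 0.26). In both Lrrn4 and Gpm6a the sets touched most closely at 61B and 26B.

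Msln (mesothelin) differed by 0.71 (SE 0.25) and Upk3b, the uroplakin of mesothelium, by 0.28 (SE 0.10). Wt1 was the member that overlapped, with a difference of 0.27 (SE 0.29). Rspo1 did not pass the filter and read 7.51, 7.03 and 8.29 against 8.60, 8.47 and 8.18. The list median was 1.03 without 61B, where Bnc1, Muc16 and Lrrn4 passed the adjusted threshold in limma beside 1.40% of all probe sets higher, and 0.83 without 24B.

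Of the 20 genes of smallest p, others that were higher in the second set were Sema6c, Zdhhc12, Mchr1 and Rab7b. Sema6c, a transmembrane semaphorin, read 7.85, 8.19 and 7.81 against 9.44, 9.22 and 9.50, a difference of 1.44 (SE 0.20). The first-set mean of Sema6c lay below the filter level of 8.03. It passed the filter only through the second set, so the filter favoured its direction. Zdhhc12, an enzyme that adds palmitate to proteins, read 8.06, 8.46 and 7.76 against 9.29, 9.19 and 9.74 (1.31, SE 0.24). Mchr1, the receptor of melanin-concentrating hormone, differed by 0.91 (SE 0.17) and Rab7b, a GTPase of late endosomes, by 0.78 (SE 0.15). Their adjusted p in limma was 0.365 each.

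Smooth muscle, the main tissue of the organ, differed little. Of 23 tested genes of the contractile apparatus, 21 were higher in the second set, with a median difference of 0.16 beside 0.03 for all genes. The defining genes Acta2 (0.03), Actg2 (0.02) and Myh11 (0.08), close to the brightest values of the array, overlapped. Ppp1r14a, an inhibitor of myosin phosphatase, was the 1 gene with unadjusted p under 0.05, beside 4.99% of all genes higher. It read 12.51, 12.24 and 13.13 against 13.16, 13.28 and 13.01 (0.52, SE 0.20), so 61B overlapped the second set.

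The list score was -0.23 on 43B and -0.17 on 45B, and 0.12 on 61B, 0.00 on 24B, 0.16 on 25B and 0.12 on 26B. Array 61B was the highest of its set in 20 of the 23 genes. Without 61B the median was 0.25. Synpo2, Ldb3, Ppp1r12b and Ppp1r14a then passed the adjusted threshold, beside 3.51% of all probe sets in either direction. Des (desmin) read 13.06, 13.46 and 13.79 against 13.54, 13.96 and 13.88, with 43B the lowest of the 6 and 61B the highest of its set. All 11 tested receptors and channels of smooth muscle were higher in the second set (median 0.18), with Kcnma1, the pore of the large potassium channel, at 10.09, 10.08 and 10.22 against 10.43, 10.72 and 10.46 (0.41, SE 0.14). Chrm3, the muscarinic receptor of the detrusor, did not pass the filter and read 6.16, 6.83 and 8.16 against 7.85, 8.41 and 8.61.

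The urothelium did not separate the sets. Of 26 tested genes 19 were lower, with a median difference of -0.10, none at unadjusted p under 0.05. The uroplakins Upk1a (0.08), Upk2 (-0.01) and Upk3a (-0.07) overlapped. The variation ran within the sets: 45B was the highest of the 6 arrays for 18 genes and 25B was the lowest for 19. The list score was 0.31 on 45B and -0.34 on 25B, with 24B at 0.19. Gata3, a transcription factor of urothelium, read 13.03, 13.00 and 12.10 against 12.73, 11.96 and 11.94 (-0.50, SE 0.28).

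Fibroblast and matrix genes overlapped in most cases (median 0.09, 19 tested). At unadjusted p under 0.05, 2 were higher and 1 was lower, beside 4.99% and 3.69% of all genes. Dpt (dermatopontin) read 12.98, 12.27 and 12.62 against 13.15, 13.35 and 12.95 (0.52, SE 0.18), and Col5a1 differed by 0.16. Fap, the fibroblast activation protease, read 10.86, 10.93 and 9.33 against 9.50, 9.79 and 9.05 (-0.93, SE 0.40), again with 61B at the level of the second set. Without 61B, Fap (-1.45) and Mfap5 (0.45) passed the adjusted threshold in limma, beside 2.10% of all probe sets lower and 1.40% higher.

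Of 21 endothelial genes 18 were higher in the second set (median 0.15), none at unadjusted p under 0.05. Lyve1, a hyaluronan receptor of lymphatic endothelium and some macrophages, read 11.69, 11.43 and 12.15 against 12.29, 12.42 and 12.31 (0.58, SE 0.18) without overlap. The lymphatic genes Flt4 (0.02) and Mmrn1 (-0.05) did not share this. Of 8 pericyte genes 5 were higher (median 0.21).

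Of 19 tested leukocyte genes, 17 were higher in the second set, with a median of 0.20, and 3 at unadjusted p under 0.05 (4.99% of all genes). Cd163, a scavenger receptor of tissue macrophages, read 9.04, 8.84 and 9.93 against 10.12, 9.87 and 9.99 (0.72, SE 0.27). C1qc, a chain of complement C1q, read 9.31, 8.88 and 9.33 against 9.66, 9.84 and 9.64 (0.54, SE 0.18). Fcer1g, the common gamma chain of Fc receptors, read 9.85, 9.60 and 10.44 against 10.49, 10.49 and 10.43. For Cd163 and Fcer1g, 61B lay at the level of the second set. The list score was -0.25, -0.23 and 0.08 in the first set and 0.17, 0.16 and 0.08 in the second.

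The neutrophil genes S100a8 and S100a9 differed by -0.35 and -0.79 with overlap. S100a9 read 9.77, 10.03 and 7.61 against 7.20, 9.24 and 8.60, so the variation ran within both sets. Of 4 mast cell genes 3 were lower (median -0.03). Of the erythroid genes Hbb-b2 read 9.50, 9.85 and 9.73 against 9.39, 11.19 and 11.41, high on 25B and 26B alone.

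Of 13 interferon-response genes, 12 were higher in the second set (median 0.34), and 3 at unadjusted p under 0.05, beside 4.99% of all genes: Gbp3 (0.69, SE 0.24), Oasl2 (0.60, SE 0.23) and Xaf1 (0.52, SE 0.22). Gbp2, a guanylate-binding protein induced by interferon, read 11.47, 11.29 and 12.52 against 12.29, 12.27 and 12.12. The list score was -0.29 on 43B and -0.26 on 45B, 0.08 on 61B and 0.15 to 0.16 in the second set. As for leukocytes and smooth muscle, 43B and 45B had the lowest scores.

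**Figure D4:**
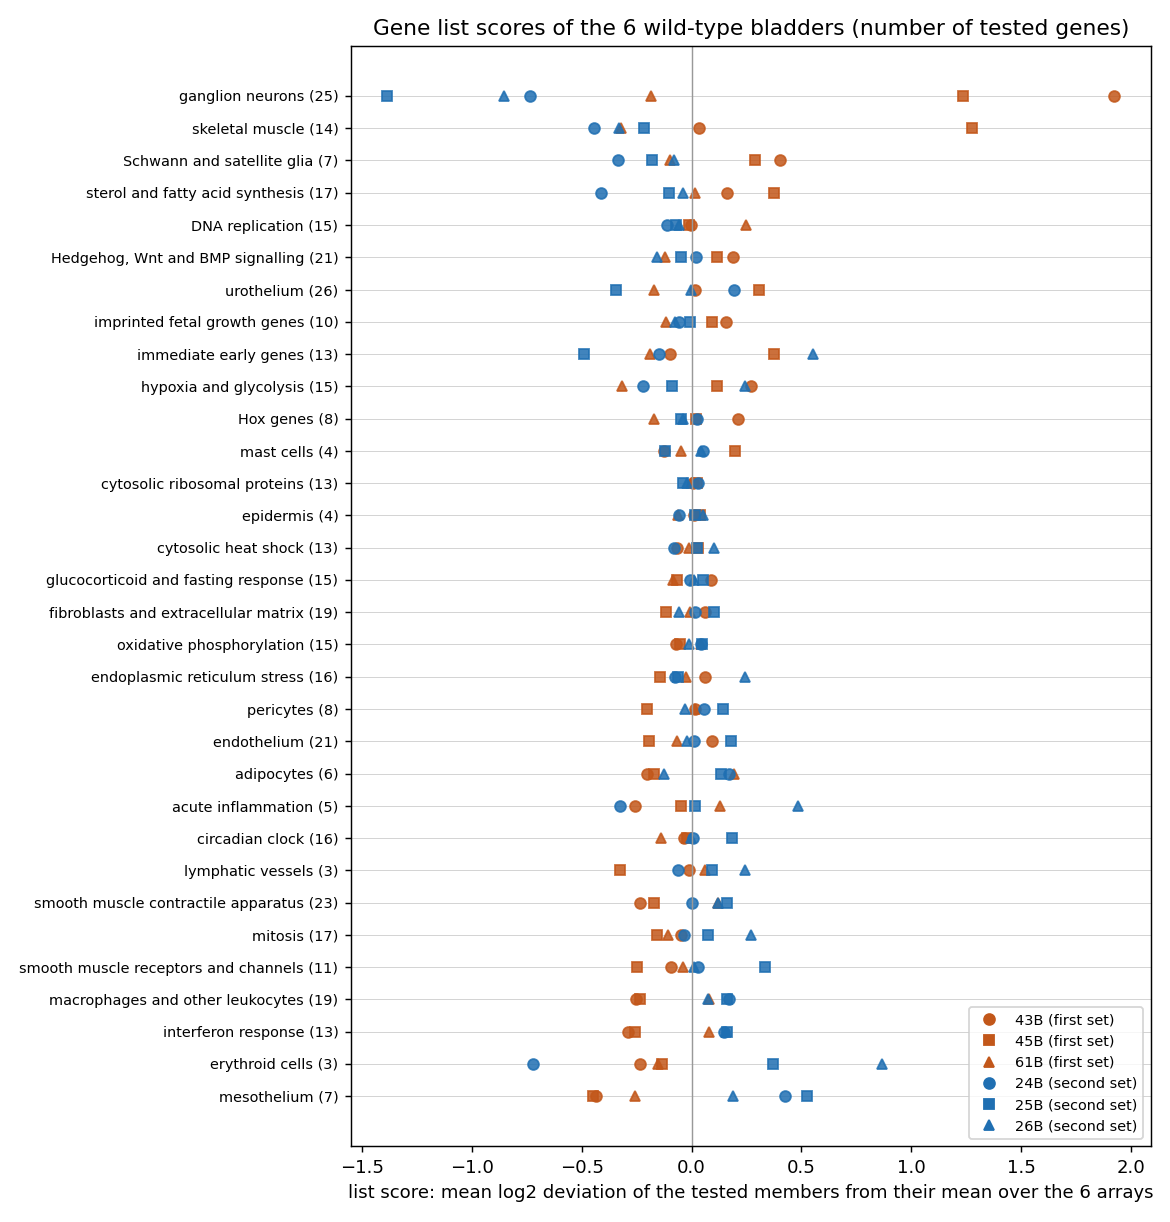
Score of each gene list (mean log2 deviation of its tested genes from their means over the 6 arrays; number of genes in brackets) for every wild-type array, with the first set in orange and the second in blue. Ganglion neurons spread from -1.38 to 1.92 and skeletal muscle is high on 45B alone at 1.28. The sets separate without overlap for mesothelium and for ganglion neurons. They also do so, by smaller gaps, for sterol synthesis, DNA replication, mitosis, interferon response, smooth muscle receptors and channels, and the clock. Most other lists lie within 0.5 units of 0.

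Genes of sterol synthesis were lower in the second set as a group. Animal cells make cholesterol when the sensor pair Scap and Insig1 lets SREBP2 reach the nucleus, where it binds sterol regulatory elements, often beside CCAAT boxes bound by NF-Y. The genes whose promoters are shown are the 3 tested members of smallest p that have a promoter in the RefSeq table: Insig1, which retains SREBP in the endoplasmic reticulum, Hmgcs1, which makes HMG-CoA, and Fasn, the fatty acid synthase. Each window holds 250 bases before and 50 after the start of the gene in build GRCm38.p6, read 5′ to 3′ along the gene. They lie at chr5:28071162-28071461 (+ strand), chr13:119690101-119690400 (+ strand) and chr11:120824498-120824797 (- strand). Capitals mark the sterol regulatory element TCACNCCAC, the CCAAT box CCAAT and the E-box CACGTG on either strand, so that a CCAAT box on the other strand reads ATTGG.
Insig1: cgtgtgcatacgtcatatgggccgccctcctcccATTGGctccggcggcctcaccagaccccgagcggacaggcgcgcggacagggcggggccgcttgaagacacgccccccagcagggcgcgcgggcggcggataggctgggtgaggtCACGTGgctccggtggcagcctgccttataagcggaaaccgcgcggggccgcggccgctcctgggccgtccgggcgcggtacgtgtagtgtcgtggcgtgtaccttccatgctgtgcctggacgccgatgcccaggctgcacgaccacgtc
Hmgcs1: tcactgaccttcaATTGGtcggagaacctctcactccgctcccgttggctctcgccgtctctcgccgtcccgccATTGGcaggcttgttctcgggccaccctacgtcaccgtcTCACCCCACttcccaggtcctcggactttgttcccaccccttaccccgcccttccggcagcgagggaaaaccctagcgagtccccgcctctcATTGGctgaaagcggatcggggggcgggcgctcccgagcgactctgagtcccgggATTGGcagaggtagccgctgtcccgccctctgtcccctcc
Fasn: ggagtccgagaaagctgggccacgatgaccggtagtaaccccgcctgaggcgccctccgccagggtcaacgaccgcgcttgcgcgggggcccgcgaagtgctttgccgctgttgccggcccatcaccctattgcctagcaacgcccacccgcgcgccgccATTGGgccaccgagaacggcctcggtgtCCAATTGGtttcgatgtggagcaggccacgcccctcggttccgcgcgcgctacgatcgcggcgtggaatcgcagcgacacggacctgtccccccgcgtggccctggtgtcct
The 300 bases of Hmgcs1 held the sterol regulatory element at base 114 and CCAAT boxes at bases 14, 75, 206 and 261. Those of Insig1 held a CCAAT box at base 35 and an E-box at base 150, and those of Fasn held overlapping CCAAT boxes at bases 189 and 192 and a further one at base 161.

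Of the 17 tested genes of the list, 11 had a promoter in the table. A CCAAT box was present for 9 of these 11, beside 37.4% of all 32817 promoters, the sterol regulatory element for 1, beside 1.24%, and the E-box for 2, beside 7.15%. A gene was counted if any of its promoters matched, while the shares of all promoters are per promoter. Dhcr7 had 3 promoters, with a CCAAT box in 1 and an E-box in 1. A match describes these letters in this window, and a factor's binding was not measured.

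Of the 17 genes, 15 were lower in the second set and the median difference was -0.40. At unadjusted p under 0.05, 8 were lower, beside 3.69% of all genes, and 8 were lower without overlap, beside 4.33%. Insig1 read 12.99, 13.13 and 12.73 in the first set and 11.49, 12.08 and 12.22 in the second, a difference of -1.02 (SE 0.19, 2.02-fold). Without 24B the difference of Insig1 was -0.80. Every array of the second set lay below every array of the first, and 24B was the lowest.

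Hmgcs1 read 14.86, 15.14 and 14.74 against 14.04, 14.52 and 14.54 (-0.54, SE 0.15). Fasn read 12.28, 12.63 and 12.03 against 11.32, 11.81 and 11.90 (-0.64, SE 0.20). Fdft1, the squalene synthase, read 13.08, 13.34 and 12.75 against 11.98, 12.57 and 12.56 (-0.69, SE 0.19). The sets did not overlap in any of these 3, and their adjusted p in limma lay between 0.402 and 0.449. Without 61B, Insig1 and Fdft1 passed the adjusted threshold in limma, at 0.0205 and 0.0468, beside 2.10% of all probe sets lower.

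Sqle (-0.40), Fdps (-0.29), Idi1 (-0.34) and Stard4 (-0.44) were also without overlap, and Cyp51 (-0.55), Mvd (-0.69) and Lss (-0.44) overlapped. Scd1, the stearoyl-CoA desaturase, went the other way, at 12.64, 12.68 and 12.71 against 12.93, 13.09 and 13.14 (0.38, SE 0.10). Hsd17b7, which acts in a late step of cholesterol synthesis and was not on the list, was among the 20 genes of smallest p, at 10.92, 11.34 and 10.86 against 10.15, 9.63 and 10.09 (-1.09, SE 0.19).

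Array 24B was the lowest of the 6 for 10 of the 17 genes, and 45B was the highest for 13. The list score was 0.16, 0.38 and 0.02 in the first set and -0.41, -0.10 and -0.04 in the second. Without 24B the median was -0.25. The counts at unadjusted p under 0.05 and without overlap were taken with all 6 arrays only. The part of 24B's departure from its label in this difference was not tested.

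**Figure D5:**
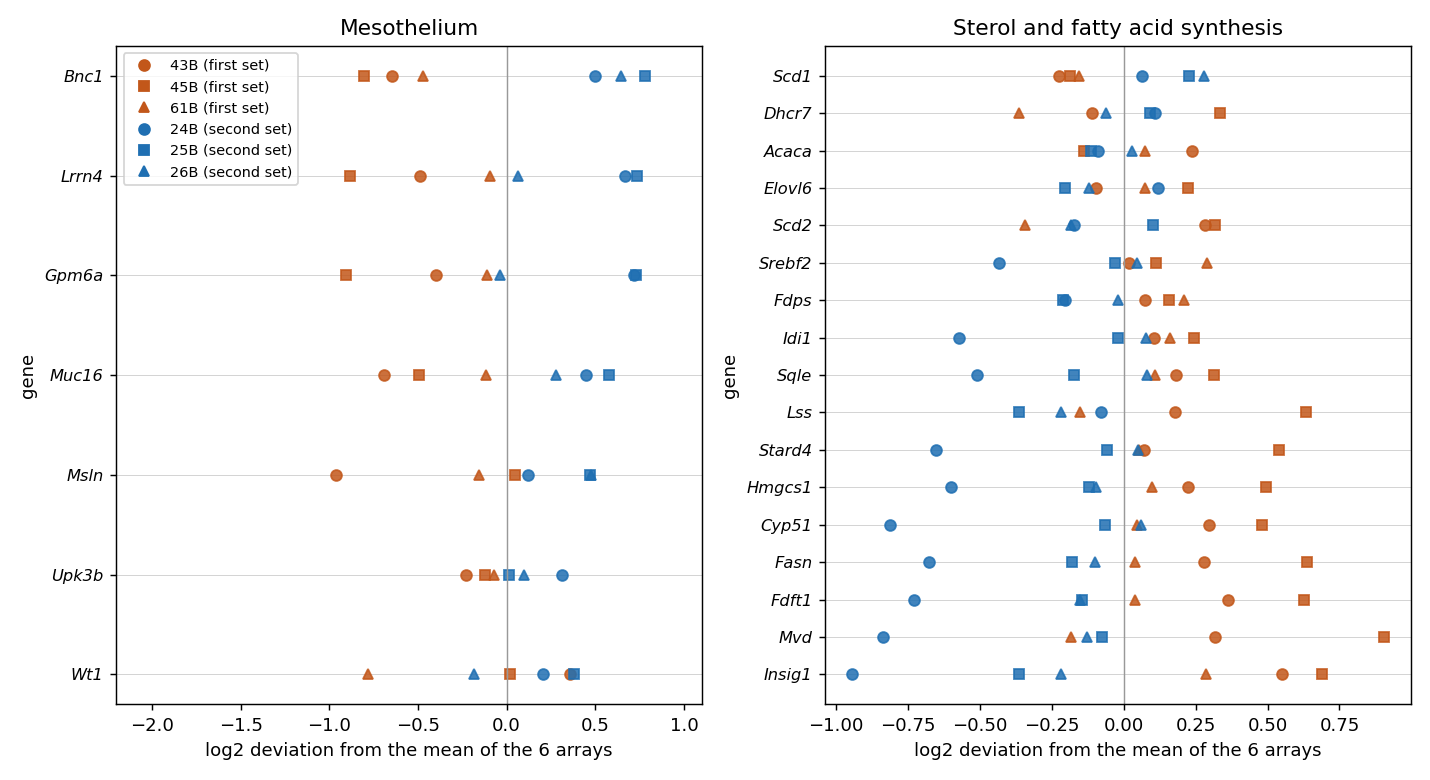
Deviation of each gene from its mean over the 6 wild-type arrays (log2 units, 1 point per array, first set orange and second set blue) for the 7 tested mesothelium genes (left) and the 17 tested genes of sterol and fatty acid synthesis (right). The blue points lie right of the orange points for 6 of 7 mesothelium genes, and left of them for 8 sterol genes, with 24B (blue circle) farthest left for 10.

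Genes of the cell cycle were listed as replication and mitosis, and no member of either list passed the adjusted threshold in limma, with all 6 arrays or without 61B. Of 15 DNA replication genes, 13 were lower in the second set (median -0.20), 5 at unadjusted p under 0.05 (3.69% of all genes). Uhrf1, which maintains DNA methylation behind the fork, read 12.02, 12.16 and 12.08 against 11.64, 11.77 and 11.72 (-0.38, SE 0.11). Mcm7, a subunit of the replicative helicase, read 14.00, 14.01 and 13.99 against 13.82, 13.75 and 13.78 (-0.21, SE 0.07). In both, the arrays within a set lay closer together than the sets.

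Pcna, the sliding clamp, differed by -0.20 (SE 0.07) and Mcm6 by -0.34 (SE 0.13), both without overlap. Array 61B was the highest of the 6 in 10 of the 15 genes, and without it the median was -0.08. Ccnd1 (cyclin D1, which carries growth signals into G1) was among the 20 genes of smallest p. It read 10.97, 11.12 and 10.81 against 10.05, 10.20 and 10.28 (-0.79, SE 0.14), and its other 2 tested probe sets differed by -0.63 and -0.50.

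All 17 tested mitosis genes were higher in the second set, with a median of 0.24. At unadjusted p under 0.05, 3 were higher, beside 4.99% of all genes, and 7 were without overlap, beside 7.94%. The replication and mitosis lists were not tested against each other. Ccnb2 (cyclin B2) read 11.94, 11.93 and 11.93 against 12.20, 12.22 and 12.27 (0.30, SE 0.10), Bub1b, of the spindle checkpoint, 10.31, 10.42 and 10.63 against 10.77, 11.01 and 10.93 (0.45, SE 0.14). Birc5 (survivin) differed by 0.25 (SE 0.10). Mki67 (0.07) and Top2a (0.03), which mark cycling cells in general, differed less. Array 26B was the highest of the 6 in 15 of the 17 genes, and without it the median was 0.15.

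Among ligands and targets of Hedgehog, Wnt and BMP signalling, 21 were tested, with 14 lower (median -0.11). Dkk2, a secreted modulator of Wnt signalling, read 10.77, 10.69 and 10.44 against 10.21, 9.94 and 9.77 (-0.66, SE 0.16) without overlap. Wnt5a, a ligand of mesenchyme, read 11.87, 11.56 and 10.55 against 10.91, 10.68 and 10.17 (-0.74, SE 0.32). Shh, the signal of the urothelium, overlapped (-0.21), as did its target Gli1 (0.06), while Ptch1, its receptor and target, was higher in the second set (0.24, SE 0.08) without overlap. Of 8 Hox genes 4 were higher (median 0.03), with Hoxd13 at 12.66, 12.67 and 11.88 against 12.14, 11.91 and 11.93 (-0.41, SE 0.21).

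Of 10 imprinted genes of fetal growth 5 were higher (median -0.04). Cdkn1c, a cell cycle inhibitor expressed from the maternal copy, read 14.12, 14.22 and 13.42 against 13.54, 13.47 and 13.37 (-0.46, SE 0.19), and Meg3 had the same order of arrays (-0.33). Both passed the adjusted threshold without 61B, beside 2.10% of all probe sets lower. Igf2 was higher by 0.13 (SE 0.06) without overlap.

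In stress and metabolic programs the extremes fell on single arrays. Immediate early genes (13 tested, median -0.01) were highest on 26B for 9 genes and lowest on 25B for 8. Fos read 12.93, 13.46 and 12.82 against 13.42, 12.33 and 14.10. Hypoxia and glycolysis genes (15 tested, median 0.01) were lowest on 61B for 9, and Bnip3 read 14.54, 14.08 and 12.78 against 13.52, 13.71 and 13.57. Of the glucocorticoid and fasting genes (15 tested, median 0.09), Cdkn1a (p21) was lower without overlap, at 11.81, 12.30 and 11.82 against 11.49, 11.38 and 11.62 (-0.48, SE 0.16), and Txnip was higher (0.42, SE 0.15) with overlap.

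Endoplasmic reticulum stress (16 tested, median 0.05), cytosolic heat shock (13, median 0.02), acute inflammation (5, median 0.15), the circadian clock (16, median 0.17), oxidative phosphorylation (15, median 0.05), adipocytes (6, median 0.06) and epidermis (4, median 0.17) had no gene without overlap beyond Ddit3, Npas2 and Sbsn. The 13 cytosolic ribosomal proteins differed least, between -0.08 and 0.04, with a median of -0.01 that became 0.08 when arrays were centred on their medians. That centring moved the median of all genes to 0.10, and the medians of the immediate early, imprinted and mast cell lists also became positive under it. On the values as deposited, the near-zero medians of skeletal muscle, lymphatic vessels and immediate early genes turned their sign.

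For 3 more of the 20 genes of smallest p, several probe sets were tested. Eif2d, a translation initiation factor, differed by -1.12 (SE 0.18) on 1 probe set, at 10.08, 10.23 and 10.53 against 9.34, 8.98 and 9.16. Its other 3 tested probe sets differed by 0.16, 0.12 and -0.04, so they disagree. Malat1, a nuclear long noncoding RNA, was lower by -0.44 (SE 0.08) on 1 probe set and had differences between -1.23 and -0.12 on its other 6. Katnbl1 differed by -0.74, -0.59 and -0.17 on its 3.

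The transgenic arrays lie in the same series and share no array with the wild-type sets. The SMAA/EYFP minus SMGA/EGFP difference had the same sign as the wild-type set difference for 19 of the 20 genes of smallest p and for 19 of the 20 of largest spread, beside 7141 of 11322 tested genes (63.1%). Rtn1 and Tubb3 are in both groups of 20, and both groups hold many neuronal genes that vary together. The counts are therefore not of independent agreements. Among the transgenic arrays genotype and record run cannot be told apart. Bnc1 read 6.95, 7.30 and 7.35 on the SMGA/EGFP arrays and 10.38, 10.88 and 9.99 on the SMAA/EYFP arrays. The mesothelium score was -1.79 to -1.52 in SMGA/EGFP and 0.21 to 1.04 in SMAA/EYFP. The first wild-type set lay between these groups, and the second set overlapped SMAA/EYFP.

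Neuronal genes were high on some transgenic arrays of both groups. Nefl read 13.03, 13.55 and 13.02 in SMGA/EGFP and 9.78, 11.54 and 13.31 in SMAA/EYFP. The neuronal score was 0.69 to 1.47 in SMGA/EGFP and -1.04, -0.36 and 1.09 in SMAA/EYFP, so 1 of the SMAA/EYFP arrays lay among the SMGA/EGFP arrays. Clca1 read 11.54, 11.32 and 11.22 in SMGA/EGFP and 7.89, 7.69 and 9.16 in SMAA/EYFP. The sterol score averaged 0.15 in SMGA/EGFP and 0.08 in SMAA/EYFP. The SMAA/EYFP minus SMGA/EGFP difference was -0.59 for Insig1, and Hmgcs1 averaged 14.76 ± 0.28 on the SMGA/EGFP arrays and 14.72 ± 0.32 on the SMAA/EYFP arrays (SD, n = 3 each).

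Measures of RNA and array quality overlapped between the sets. The log2 ratio of 3-prime to 5-prime signal of Gapdh was 0.15 ± 0.09 (SD, n = 3) in the first set and 0.08 ± 0.09 (SD, n = 3) in the second, with an exact two-sided permutation p of 0.400. That of Actb was 0.74 ± 0.20 and 0.65 ± 0.08 (exact permutation p of 0.700). Median intensity was 261 ± 27.1 in the first set and 244 ± 12.01 in the second (exact permutation p of 0.400), and the share of values below 16 was 9.96% ± 0.51 and 9.27% ± 0.33 (exact permutation p of 0.200). Adjusted over the 4 measures, p was 0.533, 0.700, 0.533 and 0.533, and with 3 arrays against 3 an exact test cannot go below 0.10. Array by array, median intensity was 278 on 43B and 275 on 45B, against 229 to 256 on the other 4. The Gapdh and Actb ratios were highest on 45B (0.25 and 0.97), while 43B lay within the range of the other 4 in both. Whether quality follows the split of 43B and 45B from the other arrays was not tested.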

How the data were processed

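Gene expression in 12 whole newborn mouse bladders was measured on one-colour Affymetrix arrays, of which the 6 wild-type arrays are compared. Per the submitters' processing notes the authors used GCOS (no version given), and what they deposited is an intensity on a linear scale for every probe set; detection calls are not given in the sources used here. Intensities were quantile-normalized over the 12 arrays and converted as log2(intensity + 16). Of 45101 probe sets, 34945 had 1 gene symbol in GEO's platform annotation, 932 had several and 9160 were not listed. The single-symbol probe sets included 33729 on autosomes. The 19387 autosomal probe sets with a mean over the 6 arrays above the array-wide midpoint of such means (8.03 on the log2 scale) entered a two-sided test in R 4.3.3 by limma 3.58.1, whose eBayes step followed the trend of variance with intensity, and p-values were adjusted by Benjamini-Hochberg (threshold 0.05). The script was tested on simulated data. In the lists each gene was read from its brightest probe set. Single array measures were compared by exact permutation tests. SE is the standard error after limma's moderation.

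Named genes were the 20 of smallest p without overlap, the 20 of largest standard deviation, up to 5 members of smallest p per list, and markers of sex, smooth muscle and urothelium. Further list members are named to complete a family and were chosen after their values were seen, as were the untested members. The split and the lists were chosen with earlier results of these data known. No genome of the array's build was used, so positions are given for the printed promoters only. Alternatives were other scalings, pseudocounts, filters, probe set choices, eBayes options, array weights, all 12 arrays in the fit, all probe sets but controls, and each array left out.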

Additional observations from a re-analysis of the deposited data

Results flagged for a closer look

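Xist lay outside the main comparison because it is X-linked. The intensity of Xist on array 24B was 29604, against 80.1 to 250 on the other 11 arrays of the series, all labelled male. The Y-linked genes Eif2s3y, Kdm5d and Uty were at 26.7, 28.0 and 48.6 on the same array. No group of 3 arrays is large enough for a test of a single outlying array.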

How the results depend on the processing

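Across the alternatives, the count of probe sets called by limma was 0 except with array weights (32) and without 61B, and it ran from 0 to 680 over the arrays left out. The number of probe sets with unadjusted p under 0.05 was 2860 without a filter, 679 with a filter at the 75th percentile, 967 with 1 probe set per gene and 3368 with array weights, and it ran from 906 to 3634 over the arrays left out. Fewer or more probe sets were tested under the first 3. Olfr78 ran from -1.26 to 0.97 over the arrays left out, with its sign turned without 43B (0.50) and without 26B (0.97). Of the 20 genes of smallest p and the 20 of largest spread (Rtn1 and Tubb3 are in both), 36 passed the adjusted threshold without 61B. Over all probe sets, 680 of 19393 (3.51%) did. With array weights 19 of these genes passed, beside 32 of all probe sets. The genes were chosen for p or spread in these same arrays, so these counts are not separate support. Of list medians, 445 of 459 under other settings and 185 of 198 with 1 array left out moved by less than the spread between arrays. Those that moved were, at the 75th percentile, lymphatic vessels (0.58), mesothelium (0.61), glia (-0.0050), epidermis (0.38) and the clock (0.050); with arrays centred on their medians, epidermis (0.24), heat shock (0.11), oxidative phosphorylation (0.16), ribosomal proteins (0.082), glucocorticoid response (0.19) and imprinted genes (0.069); without a filter, epidermis (-0.036, as at the 25th percentile) and Hox genes (0.22). Over the arrays left out, the medians ran from -0.090 to 0.32 for lymphatic vessels, 0.027 to 0.24 for pericytes, 0.75 to 1.03 for mesothelium, -0.087 to 0.12 for mast cells, -0.48 to -0.17 for glia, 0.10 to 0.24 for epidermis, -0.21 to -0.080 for DNA replication, 0.015 to 0.10 for oxidative phosphorylation, 0.036 to 0.20 for the clock and -0.046 to 0.15 for the glucocorticoid response. The cause was not tested. Quantile normalization over the 6 wild-type arrays alone, chosen after seeing the data, gave 0 calls. No paired analysis was possible because the labels give the sets no shared replicate numbers.

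With 3 arrays a set the number of arrays limits the precision: the median SE of a gene's difference was 0.16. Genes below the filter may be at background, since no detection calls were used.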
